A study of Mus musculus with 6 samples.

Results

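The 10 genes described here carry glucose into the cell, split it to pyruvate and lactate, and move lactate across the membrane, and were read from a mouse spleen count table: Slc2a1, Slc2a3, Hk1, Hk2, Pfkp, Pgk1, Pkm, Ldha, Slc16a1 and Slc16a3. All 10 were found by gene identifier among the 56884 genes of the table, and all 10 passed the filter on low counts. The table holds 6 libraries. The WT group has 3 libraries of splenic B cells, obtained by selection, from wild-type animals, with BL6 in the column names. They are called A, B and C in column order, since nothing ties a column to 1 mouse. The other 3 (P1 replicates 3, 4 and 5) are spleens taken after passage 1 of cells of the Eµ-SOX11CCND1 model, which was used as an adoptive transfer model of mantle cell lymphoma. Eµ is the immunoglobulin heavy chain enhancer, which directs a transgene to the B lineage, and the model carries the transcription factor SOX11 and cyclin D1. No B cell selection is given for the P1 samples, and the recipients' strain, age, sex and own immune cells are not given in the sources used here. Whether the 3 recipients received cells of the same tumour is also not given, so p-values measure only the spread between these libraries.

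Glucose enters most cells through facilitative transporters of the SLC2 family. Hexokinases trap it as glucose 6-phosphate, phosphofructokinase commits it to glycolysis, and phosphoglycerate kinase and pyruvate kinase make ATP from its fragments. Lactate dehydrogenase A turns pyruvate into lactate, which leaves or enters the cell with a proton through monocarboxylate transporters of the SLC16 family. Resting B cells use little glucose, while activated lymphocytes and many lymphomas use more and release lactate. Most steps are served by several genes whose products differ in tissue range, substrate affinity or regulation, so the choice of isoform was examined beside the level. Under low oxygen, hypoxia-inducible factor binds short sites around the letters ACGTG near many of these genes, and MYC binds the related E-box CACGTG.

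The start site sequences of the 10 genes were searched for these letters. RefSeq promoter sequences (build GRCm38.p6, 250 bases before to 50 after each start) were found for 9 of the 10 genes, at 12 start sites, and none was matched for Slc2a3. ACGTG occurred on either strand at 8 of the 12 start sites (66.7%), at least 1 for each of 8 genes, against 19.6% of 32817 mouse promoters of the same length. Promoters rich in G and C hold it more often: 26.5% of the 9678 with at least 60% G and C, a class that held 10 of the 12 start sites and all 8 with a match. CACGTG, which contains ACGTG on both strands, was found at 2 of the 12 start sites, those of Ldha and Slc16a1, and in 7.15% of all promoters. Hk1 had its matches after the start site, and Pfkp had none in this window. The stretches that hold the matches before the start site are printed from 5′ to 3′ on the strand of the gene, with capitals marking ACGTG or its reverse complement. They lie at chr4:119108694-119108728 (plus strand) for Slc2a1, chr6:82774487-82774695 (minus) for Hk2, chrX:106186935-106186988 (plus) for Pgk1 and chr9:59657137-59657171 (plus) for Pkm. Those of Ldha, Slc16a1 and Slc16a3 lie at chr7:46845644-46845789, chr3:104638449-104638484 and chr11:120949025-120949066, all on the plus strand.
Slc2a1: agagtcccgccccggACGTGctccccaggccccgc
Hk2: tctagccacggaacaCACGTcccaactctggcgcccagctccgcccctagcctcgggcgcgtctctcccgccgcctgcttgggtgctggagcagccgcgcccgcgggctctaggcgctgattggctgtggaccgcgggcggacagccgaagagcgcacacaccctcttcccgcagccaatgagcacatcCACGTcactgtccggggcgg
Pgk1: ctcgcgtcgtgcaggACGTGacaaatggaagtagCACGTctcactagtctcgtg
Pkm: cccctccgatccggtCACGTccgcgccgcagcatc
Ldha: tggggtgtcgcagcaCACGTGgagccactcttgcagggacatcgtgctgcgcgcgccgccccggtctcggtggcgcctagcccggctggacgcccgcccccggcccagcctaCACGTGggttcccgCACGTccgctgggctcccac
Slc16a1: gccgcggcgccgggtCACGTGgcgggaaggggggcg
Slc16a3: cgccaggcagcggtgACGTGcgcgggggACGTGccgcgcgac
Ldha holds the letters in 3 places and Slc16a3 in 2 that lie close together. A match of letters is a description of the sequence and not a measured binding site. Slc2a1 and Ldha, which hold matches, did not pass the test of levels given below, and Pfkp, without a match in this window, did. The relation of the matches to the changes in level was not tested.

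Library totals ran from 12196413 to 14266132 counts in the WT libraries and from 7510327 to 10363396 in the P1 libraries. The driver genes followed the labels: the P1 replicates 3, 4 and 5 held 956, 4066 and 5584 Sox11 counts, against at most 1 in a WT library, and 1224, 2257 and 5835 Ccnd1 counts, against 81 to 296. P1 replicate 4 stood apart, with 17.4% of its counts from the mitochondrial genome and 11.7% from globin genes, against at most 3.40% and 2.90% in the other 5 libraries. Markers of other cell types also differed between the groups. Summed markers of red cell precursors were at 102 to 128 normalised CPM (counts scaled to library size) in WT and 7017 to 225444 in P1, with 14 of 14 tested genes higher, led by Hbb-bs and Hba-a1. Summed neutrophil markers were at 4.11 to 12.1 CPM in WT and 1162 to 8268 in P1, with 14 of 14 higher, led by Ngp and Ltf. Ly6g was at 0 in WT A and C, and Prtn3, Mmp8 and Lcn2 were at 0 in WT B. T cell markers (217 to 229 against 304 to 796 CPM, 12 of 13 higher, 1 lower) and dividing cell markers (359 to 452 against 2973 to 5553 CPM, 15 of 16 higher) also rose. Monocyte and macrophage markers were at 255 to 653 CPM in WT and 599 to 1682 in P1, with 4 of 14 higher. Pan-B cell markers were at 20029 to 22468 CPM in WT and 3961 to 9046 in P1, with 21 of 24 lower. In such bulk samples fewer cells of a type and less RNA per cell cannot be told apart. The scaling behind the normalised CPM (TMM) gave P1 replicate 4 a factor of 0.578, against 1.09 to 1.18 in the other 5 libraries. Levels of replicate 4 and orders of the recipients by CPM depend on this factor and can differ with library totals. By normalised CPM the dividing cell sum had the P1 order of the red cell precursor sum. The T cell sum had that of the neutrophil sum. The places of replicate 4 in the dividing cell sum and in the monocyte and macrophage sum depend on its factor.

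Of the 10 genes, 7 were higher in the P1 spleens, from the first step of glycolysis to the transport of lactate. The fold changes were above 10 for both lactate transporters, while neither glucose transporter passed the test. Hk1, Hk2, Pfkp, Pgk1, Pkm, Slc16a1 and Slc16a3 rose (edgeR quasi-likelihood test, Benjamini-Hochberg adjusted p under 0.05 over 15462 genes, n = 3 per group). Slc2a1, Slc2a3 and Ldha did not pass. None fell by edgeR, at an unadjusted p under 0.05 or by DESeq2, which called 8 of the 10 higher (17.6% of the genes it tested). Over all genes tested, 27.9% were called, 16.9% as higher and 11% as lower. In 8 of the 10, every P1 library lay above every WT library, a pattern seen in 22.9% of all genes tested. The opposite pattern was seen in 24.9%, so that 47.8% of genes did not overlap. The median log2 fold change of the 10 was 1.19, against 0.02 over all genes tested. The 10 were chosen with earlier results of these data known, so these contrasts describe the list and do not test it.

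**Figure D1:**
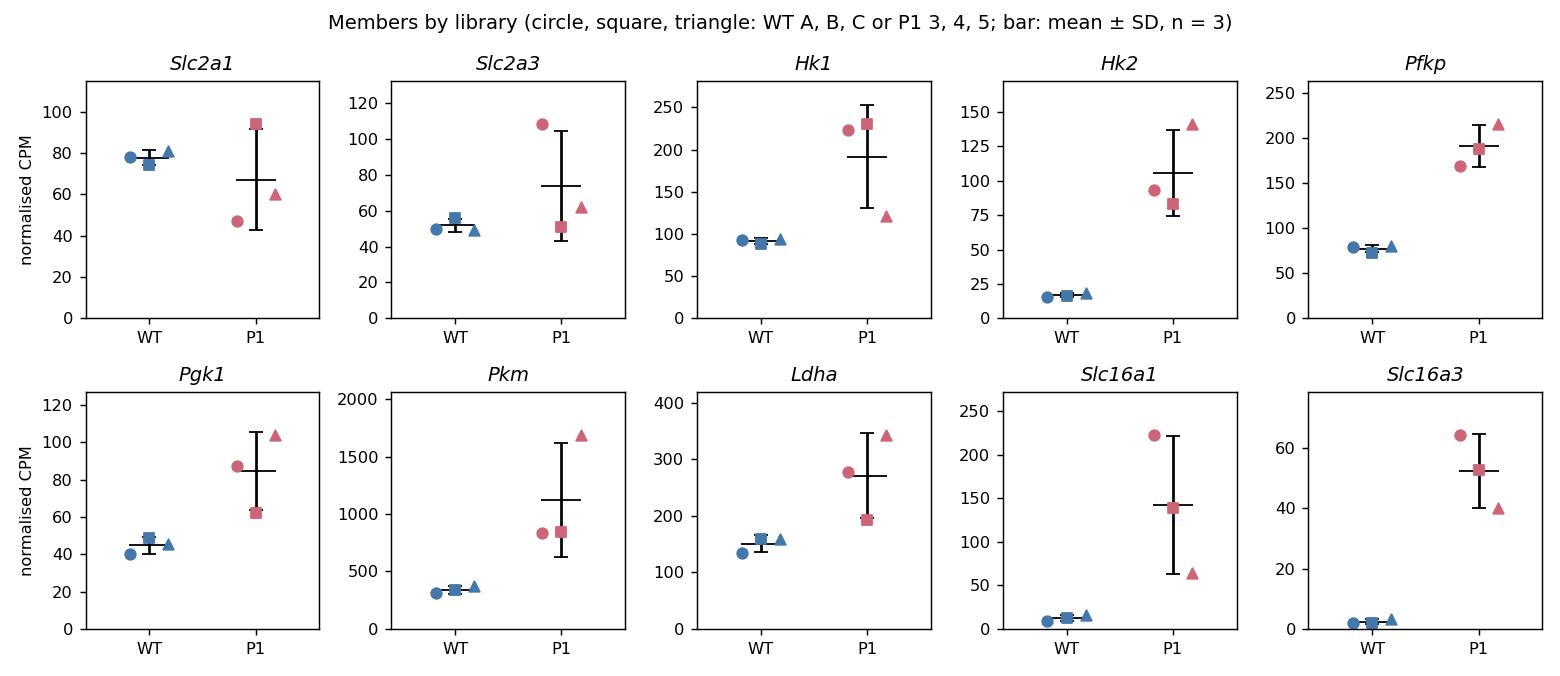
Normalised CPM (vertical axes, from 0, 1 panel per gene) of the 10 genes in the 3 WT libraries (blue) and 3 P1 libraries (red), with the mean and SD. The groups overlap for Slc2a1 and Slc2a3 and are apart for the other genes, and the P1 points have the widest relative range for Slc16a1, from 64.4 to 223 CPM.

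The glucose importers of most white cells did not pass the test. Slc2a1 (ENSMUSG00000028645.12, GRCm39 chromosome 4, 118965908 to 118995180) encodes the widely expressed transporter GLUT1. Its normalised CPM were 78.1, 74.2 and 81.1 (WT A to C), and 46.9, 94.2 and 60.3 (P1 3 to 5). All later values are given in this order of libraries. On this scale replicate 4 was above every WT library and the other recipients below. The place of replicate 4 depends on its scaling factor of 0.578, as its 407 Slc2a1 counts were the fewest of the 6 libraries. With the standard error of the fit, the log2 difference was -0.22 ± 0.29 (edgeR adjusted p = 0.625). It was -0.60 with library totals, and it turned to 2.56 under B-cell-centred scaling, described at the end. Slc2a3 (chromosome 6, 122704768 to 122778599) encodes GLUT3, a high-affinity transporter also found in neutrophils. It was at 49.9, 55.9 and 49.4 CPM in WT and at 108, 50.9 and 61.8 in P1, so that replicate 3 alone stood well above the WT range. Its log2 fold change was 0.51 ± 0.31 (edgeR adjusted p = 0.261), and it was 0.12 without replicate 3. Replicate 3 was also the library with the highest summed neutrophil markers, at 8268 CPM, and with the highest T cell and monocyte and macrophage sums. The part of these cells in this value was not tested.

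The transporter that did rise was barely counted in the WT libraries. Slc2a4, which encodes the insulin-responsive transporter GLUT4, had 0, 2 and 2 counts in the WT libraries. It was at 44.2, 35.9 and 7.66 CPM in P1 replicates 3, 4 and 5, a log2 fold change of 8.19 ± 0.96 (edgeR adjusted p = 0.000914), or 7.57 without WT A, which had 0 counts. By normalised CPM this order of recipients was that of the summed monocyte and macrophage markers. On that scale replicate 5 was also the lowest recipient in red cell precursor and dividing cell markers. The monocyte and dividing cell orders depend on the scaling of replicate 4. The part of these cells was not tested. Of the 5 other sugar transporters tested, Slc2a4 alone passed, against 16.9% of all genes called higher. Slc2a6, Slc2a8, Slc2a9 and the sodium-coupled Slc5a2 were at -0.04, -0.09, 0.06 and -0.85. The remaining 7 of the 12 on this list were not tested because their counts were too low. No gene of this list fell by edgeR or at an unadjusted p under 0.05, and DESeq2 called 1 lower.

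Hk1, Hk2 and Hk3, which encode hexokinases, rose. Hk1 (chromosome 10, 62104634 to 62215687), the housekeeping hexokinase, was at 93.1, 87.97 and 93.9 CPM in WT and 223, 230.5 and 121 in P1. All 3 recipients were above WT, replicate 5 by the least, and the log2 fold change was 1.06 ± 0.30 (edgeR adjusted p = 0.031). By normalised CPM the recipients stood in the order of the summed red cell precursor and dividing cell markers, replicates 4, 3 and 5. Their Hk1 counts were 2591, 996 and 1045 in replicates 3, 4 and 5, so this order rests on the scaling of replicate 4. The part of these cells was not tested. Hk2 (chromosome 6, 82702006 to 82751435) encodes the inducible hexokinase bound to mitochondria, which is raised in many tumours. Hk2 was at 15.3, 16.2 and 18.1 CPM in WT and 93.3, 83.1 and 142 in P1, a rise of 2.68 ± 0.29 on the log2 scale, or 6.404-fold (edgeR adjusted p = 0.000758). Every recipient was far above every WT library. Hk3, a hexokinase of myeloid cells, was at 4.18, 7.45 and 11.3 CPM in WT and 203, 65.3 and 78.3 in P1 (log2 fold change 3.93 ± 0.56, edgeR adjusted p = 0.00195, and 3.23 without replicate 3). Its P1 order, with replicate 3 highest and replicate 4 lowest, was that of the summed neutrophil and T cell markers, and the part of these cells was not tested. Hk1 no longer passed when WT A, B or C was left out (edgeR adjusted p = 0.125, 0.141 and 0.12), nor without P1 replicate 3 or 4 (0.0548 and 0.0529). It also failed with no filter on low counts (0.0518) and with library totals, with and without mitochondrial and globin genes (0.225 and 0.069).

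Phosphofructokinase changed in the platelet-type and muscle-type genes and not detectably in the liver-type gene. Pfkp (chromosome 13, 6629804 to 6698813) was at 78.5, 72.9 and 79.8 CPM in WT and 169, 188 and 216 in P1. The 3 recipients lay close together, 1.27-fold from lowest to highest, and the rise was 1.31 ± 0.23 on the log2 scale (edgeR adjusted p = 0.00447, and 0.0884 with library totals). Pfkm rose from 4.21 ± 1.17 to 18.4 ± 2.72 CPM (mean ± SD, n = 3), a log2 fold change of 2.12 ± 0.35 (edgeR adjusted p = 0.00311). By normalised CPM Pfkm followed the order of the red cell precursor and dividing cell sums, with 16.9, 21.5 and 16.7 CPM in the recipients. Their Pfkm counts were 197, 93 and 144, so this order rests on the scaling of replicate 4. The part of these cells was not tested. Pfkl was at 92.2 ± 7.84 CPM in WT and 93.8 ± 18.7 in P1, with a log2 fold change of 0.03 ± 0.25 (edgeR adjusted p = 0.953).

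Both genes of the ATP-making steps passed the test. Pgk1 (chromosome X, 105230706 to 105247305) encodes phosphoglycerate kinase and was at 39.99, 48.6 and 45.7 CPM in WT and 87.6, 62.2 and 104 in P1. The groups did not overlap, and the rise was 0.92 ± 0.26 on the log2 scale (edgeR adjusted p = 0.0327). It did not pass when WT A, B or C was omitted (edgeR adjusted p = 0.161, 0.114 and 0.129), without P1 replicate 5 (0.0528), with no filter (0.0924) or with library totals, with and without mitochondrial and globin genes (0.297 and 0.116). Pkm (chromosome 9, 59563651 to 59586658) encodes both muscle-type pyruvate kinases, PKM1 and PKM2, by alternative exons that a count per gene cannot separate. It was at 308, 339.7 and 376 CPM in WT and at 835, 839 and 1691 in P1, and replicate 5 was 2.02 times the lowest recipient. Its log2 fold change was 1.72 ± 0.39 (edgeR adjusted p = 0.0127). Omitting WT A, B or C raised this to 0.0846, 0.0833 and 0.0625. Pklr, the liver and red cell pyruvate kinase, was at 2.48 ± 1.76 CPM in WT and 7.84 ± 3.09 in P1 and did not pass (edgeR adjusted p = 0.124).

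Ldha (chromosome 7, 46490899 to 46505051), the enzyme that makes lactate, was apart between the groups but did not pass the test. Its CPM were 134, 159.6 and 159 in WT and 277, 193 and 344 in P1. Replicate 4 was the lowest recipient, and the log2 fold change was 0.85 ± 0.29 (edgeR adjusted p = 0.0622). Without replicate 4 it was 1.06 (edgeR adjusted p = 0.011), and DESeq2 called it at an adjusted p of 0.0464. Ldhb, the form that favours pyruvate, was not tested, with WT counts of 1, 2 and 5. Ldha held at least 96.4% of the summed lactate dehydrogenase counts per kilobase in every library.

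Both proton-linked lactate transporters rose, with the highest fold changes of the 10 genes, though their difference from the enzymes was not tested. Slc16a1 (chromosome 3, 104545984 to 104565778) encodes MCT1, which carries lactate in either direction. It was at 8.60, 12.3 and 15.9 CPM in WT and 223, 139 and 64.4 in P1. Every recipient was far above WT although they differed among themselves by 3.47-fold, and the log2 fold change was 3.54 ± 0.49, or 11.6-fold (edgeR adjusted p = 0.00166). Slc16a3 (chromosome 11, 120839306 to 120851694) encodes MCT4, the exporter of strongly glycolytic cells. From 31, 28 and 43 counts in the WT libraries (1.88, 1.80 and 3.25 CPM) it rose to 64.4, 52.5 and 40.02 CPM in P1. The P1 libraries were close to each other, and the rise was 4.50 ± 0.37 on the log2 scale, or 22.7-fold (edgeR adjusted p = 0.000405). By normalised CPM replicate 3 was the highest and replicate 5 the lowest recipient for both genes. This was the order of the summed monocyte and macrophage markers (1682, 734 and 599 CPM in replicates 3, 4 and 5). The Slc16a3 counts were 749, 227 and 345. Its order thus rests on the scaling of replicate 4, as does that of the marker sum. The part of these cells was not tested.

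Partners of these transporters rose and 1 relative fell. Bsg (basigin), the chaperone that brings MCT1 and MCT4 to the membrane, was at 71.1 ± 7.003 CPM in WT and 280 ± 85.4 in P1, a rise of 1.98 ± 0.31 on the log2 scale (edgeR adjusted p = 0.00268). By normalised CPM its recipients, at 318.5, 339.9 and 182.5, stood in the order shared by the summed red cell precursor and dividing cell markers. Their Bsg counts were 3704, 1469 and 1573, so this order rests on the scaling of replicate 4. The part of these cells was not tested. Emb (embigin), a related chaperone, rose by 3.27 ± 0.57 (edgeR adjusted p = 0.004), to 88.7 CPM in replicate 3 and 24.5 and 22.6 in the others, and by 2.31 without replicate 3. Slc16a7, which encodes the high-affinity transporter MCT2, was the 1 gene of this list that fell, from 10.7, 15.1 and 13.4 CPM to 4.30, 1.16 and 0.696 (log2 fold change -2.60 ± 0.64, edgeR adjusted p = 0.0175). Slc16a7 was at -0.09 under B-cell-centred scaling and had adjusted p values of 0.0519 and 0.0664 without P1 replicate 4 and WT B. Without P1 replicate 3 its log2 fold change was -3.88. Slc16a10, a carrier of aromatic amino acids, rose by 3.49 ± 0.59 (edgeR adjusted p = 0.00361). In all, 3 of the 10 tested genes of this list rose and 1 fell, against 16.9% and 11% of all genes tested. Slc16a4, Slc16a6, Slc16a8, Slc16a9, Slc16a11 and Slc16a13 did not pass.

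**Figure D2:**
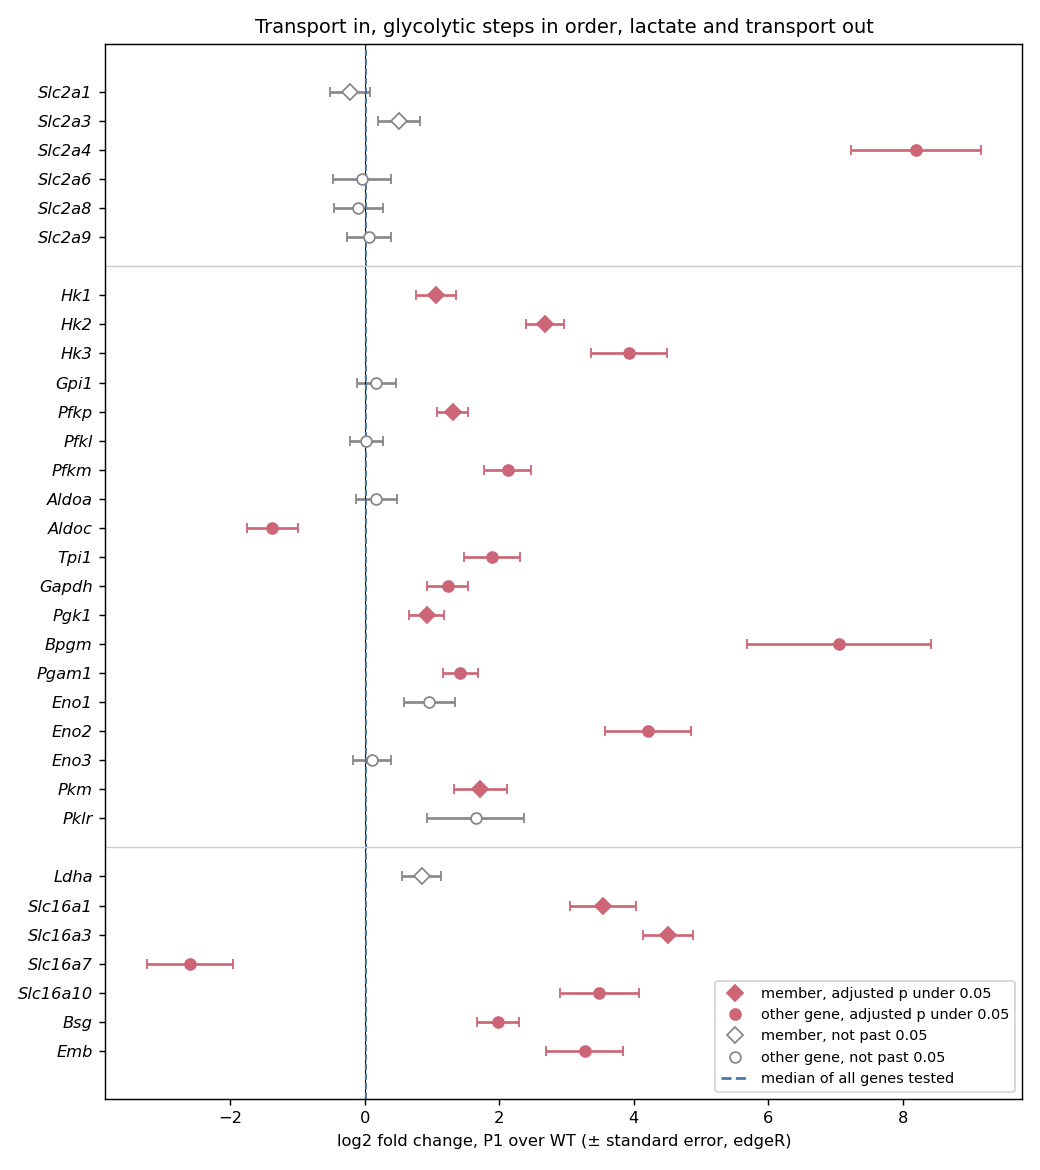
Log2 fold change of P1 over WT (horizontal axis, with the standard error) for the 10 genes (diamonds) and other genes of the route (circles), from glucose entry at the top to lactate transport at the bottom. Filled red symbols passed the test, and the dashed line is the median of all genes tested at 0.02. Slc2a4, at 8.19, and Bpgm, at 7.04, lie farthest right, and Slc16a7, at -2.60, farthest left.

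Isoform makeup was compared within each library, where the scaling between libraries cancels but the mix of cell types does not. The part of other cell types in the shares and ratios below was not tested. Counts were divided by the length given in the table and expressed as a share of the step. The size of a share depends on these lengths: Pfkp is given 13401 bases and Pfkl 6675, with 1296 and 1541 counts in WT A. In the WT libraries Pfkl held 66.2%, 66.4% and 66.3% of phosphofructokinase, which compared with 38.6%, 41.2% and 44.2% in the recipients. Pfkp went from 27.7% ± 1.12 to 42.2% ± 1.79 and Pfkm from 5.98% ± 1.19 to 16.4% ± 2.83 (SD, n = 3). This was the tightest of the shifts, with no overlap for any of the 3 genes. Among hexokinases Hk1 fell from 69.2% ± 5.22 to 32.3% ± 11.9 of the step, while Hk3 went from 13.03% ± 5.06 to 41.0% ± 14.1. The Hk2 share overlapped: it was 17.6% to 18.0% in WT and 16.1%, 23.7% and 40.1% in P1 replicates 3, 4 and 5. Replicate 3, where Hk3 held 56.9%, was the recipient with the lowest Hk2 share.

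Among lactate transporters, Slc16a1 was the largest part in all 6 libraries, at 48.001% to 61.2% in WT and 62.0% to 79.6% in P1. Slc16a3 went from 8.78% ± 1.63 to 24.8% ± 6.63. Slc16a7 went from 22.9% ± 3.93 to 0.351% ± 0.192, and was the transporter of the 4 whose level also fell. For glucose transporters, Slc2a1 held 54.8% to 55.4% in WT and 24.5%, 50.0% and 47.0% in P1, and Slc2a4 took 23.3%, 19.2% and 6.01% in P1 against at most 0.103% in WT. Summed over a step, the level per kilobase was 4.59 times higher in P1 for hexokinases, 8.85 times for lactate transporters, 3.29 times for pyruvate kinases, 1.62 times for phosphofructokinases and 1.20 times for glucose transporters.

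**Figure D3:**
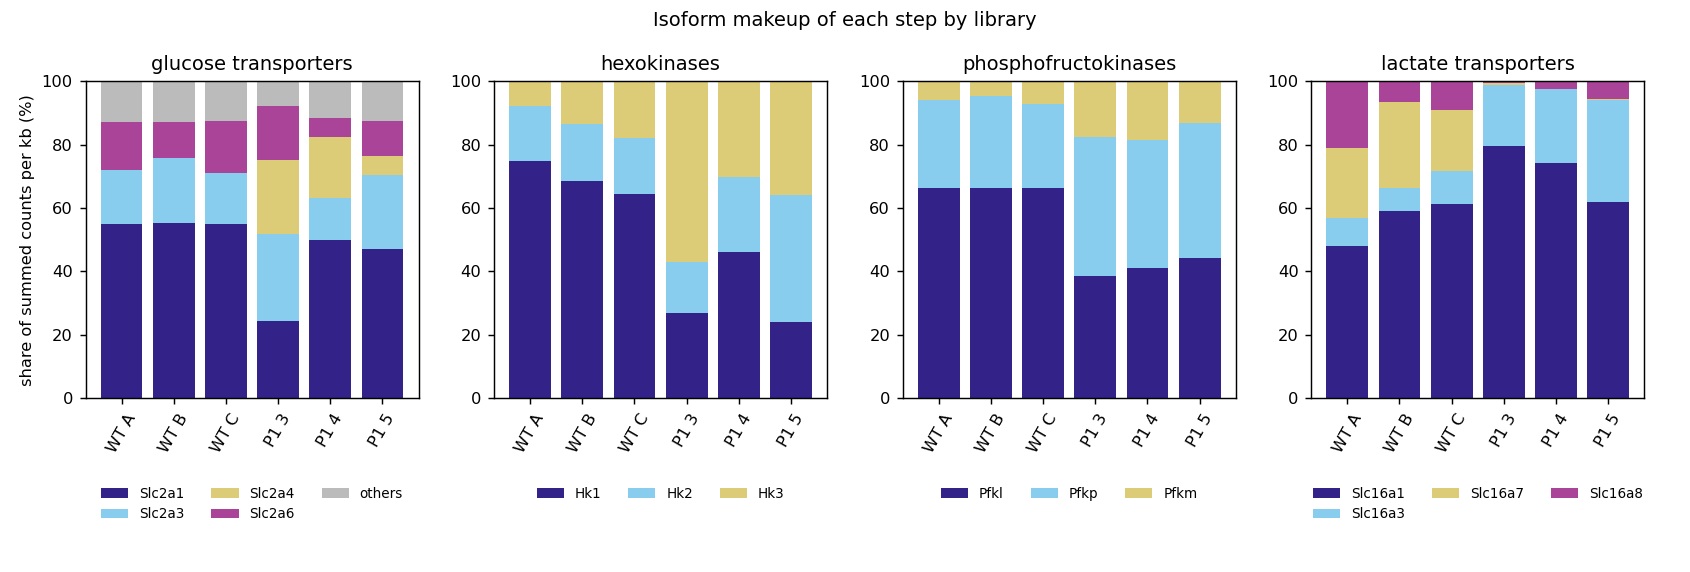
Share of each gene in the summed counts per kilobase of its step (vertical axis, percent) in each library (horizontal axis). The WT bars are alike for phosphofructokinases, with Pfkl near 66%, and the P1 bars hold more Pfkp and Pfkm. Slc16a7 holds 19.3% to 27.1% in WT and at most 0.573% in P1.

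The ratio of 2 isoforms was tested for 6 pairs over the 6 libraries, a design in which the smallest two-sided exact permutation p is 0.1. Hk2 to Hk1 was 0.235, 0.263 and 0.276 in WT and 0.599, 0.515 and 1.67 in P1, and Hk2 exceeded Hk1 per kilobase in replicate 5 alone. The geometric mean ratio was 3.11 times higher in P1 (exact permutation p = 0.1, adjusted over the pairs 0.15), and its log2 difference of 1.64 was 1.11 without replicate 5. Pfkp to Pfkl was 0.400 to 0.433 in WT and 0.963 to 1.14 in P1, a 2.45-fold difference. Slc16a3 to Slc16a1 was 0.121 to 0.182 in WT and 0.240, 0.314 and 0.517 in P1, a 2.18-fold difference. Hk3 to Hk1 was 0.104 to 0.278 in WT and 0.656 to 2.11 in P1. These 3 pairs did not overlap between the groups and had the same exact permutation p of 0.1, and adjusted p of 0.15. Slc2a3 to Slc2a1 overlapped (0.295 to 0.365 in WT, and 1.12, 0.262 and 0.496 in P1 replicates 3, 4 and 5, exact permutation p = 0.4). Its log2 difference of 0.71 was 0.16 without replicate 3 and 1.21 without replicate 4. Ldha to Ldhb also overlapped (exact permutation p = 0.2), on 5 or fewer Ldhb counts in each WT library.

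Levels of different genes were compared per kilobase, as CPM divided by length, so their order depends on the lengths given. In WT B cells the order was Pkm (68.3 ± 6.81), Ldha (45.5 ± 4.47), Slc2a1 (22.2 ± 0.994), Pgk1 (20.0 ± 1.95), Hk1 (10.7 ± 0.378), Slc2a3 (7.14 ± 0.499) and Pfkp (5.75 ± 0.276). Hk2 (2.77 ± 0.242), Slc16a1 (2.77 ± 0.821) and Slc16a3 (0.434 ± 0.154) came last. The library ranges of Slc2a1 and Pgk1, and of Hk2 and Slc16a1, overlapped, and the other neighbours were apart. In P1 Pkm (224 ± 98.6) and Ldha (81.9 ± 22.9) stayed first and apart. They were followed by Pgk1 (37.8 ± 9.43), Slc16a1 (32.2 ± 18.0), Hk1 (22.4 ± 7.15), Slc2a1 (19.1 ± 6.95), Hk2 (17.8 ± 5.23), Pfkp (14.2 ± 1.75), Slc2a3 (10.2 ± 4.22) and Slc16a3 (9.84 ± 2.29). From Pgk1 down each neighbour overlapped the next. Slc16a1 thus moved from rank 9 to rank 4, among neighbours whose ranges it overlapped.

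Some of these levels are uncertain because reads are shared. The exons of Slc16a3 overlap those of Csnk1d on the opposite strand by 306 bases, and those of Pfkp overlap Pitrm1 by 748 bases. Csnk1d had 1807 to 2236 counts in WT, where Slc16a3 had at most 43. Pkm shares 767 bases with Gm49759 on the same strand, Hk1 shares 342 with Hk1os and Slc2a1 shares 105 with Gm12868, both on the opposite strand. The counting strand is not given in the sources used here. Pgk1, Ldha and Gapdh have many processed copies in the genome. The named copies Pgk1-rs7 and Ldha-ps2 had at most 5 and 16 counts, but reads that map equally to several copies may have been left out of all of them.

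Other steps of glycolysis rose in part. Of 13 tested genes, 5 rose and 1 fell, against 16.9% and 11% of all genes tested, and their median log2 fold change was 0.96. By the size of the adjusted p these were Eno2, Pgam1 and Bpgm, and, named after their values were seen, Tpi1, Gapdh and the falling Aldoc. Bpgm, which makes the 2,3-bisphosphoglycerate of red cells, was at 13.45 to 15.6 CPM in WT and at 627, 5013 and 112 in P1 replicates 3, 4 and 5 (log2 fold change 7.04 ± 1.36, edgeR adjusted p = 0.0062). It was 4.70 without replicate 4, and with no filter on low counts the adjusted p was 0.0797. This is the order of the summed red cell precursor markers (37897, 225444 and 7017 CPM) and of the dividing cell markers, and the part of these cells was not tested. Pgam1, phosphoglycerate mutase, rose by 1.42 ± 0.26 on the log2 scale and Eno2, the neuronal enolase, by 4.21 ± 0.63, from 4 to 6 counts in each WT library (edgeR adjusted p = 0.00504 and 0.00231). Tpi1 and Gapdh rose by 1.89 and 1.23 (edgeR adjusted p = 0.0111 and 0.0166), and Aldoc fell by 1.37 (edgeR adjusted p = 0.0288, with 1.11 under B-cell-centred scaling). Aldoc did not pass without WT A, B or C (edgeR adjusted p = 0.11, 0.102 and 0.0957) or with library totals, with and without mitochondrial and globin genes (0.0706 and 0.0518). Gapdh did not pass in those same 5 settings (0.0505 to 0.142). Tpi1 did not pass without WT A or B (0.0631 and 0.0618), nor Pgam1 with library totals (0.094). Without replicate 5, Tpi1 was at 1.25 and Eno2 at 3.52. The most counted gene of the list, Aldoa, was at 429.9 ± 39.4 CPM in WT and 485 ± 118 in P1 (log2 fold change 0.17, edgeR adjusted p = 0.71). Steps with little change thus stood between steps that rose, as the plot of fold changes along the route shows.

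Some genes at the branch points of the route passed the test. Of 8 tested genes of fructose 2,6-bisphosphate and gluconeogenesis, 3 rose: Pcx (pyruvate carboxylase, 2.95 ± 0.57, edgeR adjusted p = 0.00604), Pck2 (1.38 ± 0.37, adjusted p = 0.0248) and Pfkfb1 (1.44 ± 0.46, adjusted p = 0.0473). None of these fell by edgeR, at an unadjusted p under 0.05 or by DESeq2, and the median was 0.70. Over all genes tested 16.9% rose and 11% fell by edgeR. Pcx was at 54.5, 77.8 and 14.27 CPM in the recipients, the order shared by the summed red cell precursor and dividing cell markers. The Pcx counts were 634, 336 and 123, so this order rests on the scaling of P1 replicate 4. The part of these cells was not tested. Of 13 genes of pyruvate entry to mitochondria, 2 rose: Pdk3, a kinase that shuts off pyruvate dehydrogenase (1.06 ± 0.30, edgeR adjusted p = 0.0296), and Pdha1, a subunit of that enzyme (0.87 ± 0.28, adjusted p = 0.0478). None fell by edgeR, against 2 at an unadjusted p under 0.05 and 2 by DESeq2, and the median was -0.28. These counts for pyruvate entry are near or below the 16.9% higher and 11% lower of all genes tested. Pck2, Pfkfb1, Pdk3 and Pdha1 did not pass without WT A, B or C or with library totals (edgeR adjusted p from 0.095 to 0.361). Pdp2, the phosphatase that turns pyruvate dehydrogenase back on, was at -0.92 (edgeR adjusted p = 0.0587).

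The pentose phosphate pathway, which takes glucose 6-phosphate away from glycolysis, had no gene past the threshold by edgeR. Of its 8 tested genes 2 were higher at an unadjusted p under 0.05 and 2 by DESeq2, none was lower by either, and the median was 0.53. Over all genes, 3457 of the 15462 tested were higher at that unadjusted p, and 17.6% by DESeq2. G6pdx was at 41.1, 46.9 and 40.9 CPM in WT and 177, 44.9 and 92.8 in P1 (log2 fold change 1.29 ± 0.45, edgeR adjusted p = 0.0632). Pgd was at 73.6, 71.9 and 78.9 CPM in WT and 243, 72.7 and 188 in P1 (1.17 ± 0.41, edgeR adjusted p = 0.066). In both genes, on this scale, replicate 4 was within the WT range while the other recipients were above it. The place of replicate 4 depends on its scaling factor of 0.578, as it had 194 G6pdx and 314 Pgd counts. Tkt, the most counted of the list, showed the same P1 order, with 393, 131 and 289 CPM. This is the order of the summed neutrophil and T cell markers, and the part of these cells was not tested. Taldo1 was at 0.79 (edgeR adjusted p = 0.13).

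Of 14 tested hypoxia-inducible factor and sugar sensor genes, 3 rose and 1 fell, with a median of 0.08. Over all genes tested 16.9% rose and 11% fell, with a median of 0.02, so these counts were near the background. Arrdc4, an arrestin that lowers glucose uptake and responds to sugar, rose by 3.74 ± 0.43, from 0.939 ± 0.325 to 12.6 ± 1.35 CPM (edgeR adjusted p = 0.000908). Txnip, its more abundant relative, was below WT in all 3 recipients (334 ± 35.1 and 197 ± 40.9 CPM) without passing (edgeR adjusted p = 0.0742). Epas1, the factor HIF-2α, rose by 4.12 ± 0.90, with 47.0 CPM in replicate 4 and 6.02 and 5.92 in the others, and the oxygen sensor Egln3 by 3.01 ± 0.72 from 2 to 12 counts in each WT library (edgeR adjusted p = 0.0108 and 0.0158). The gene that fell was Mlxip, a partner in glucose sensing (-0.78, edgeR adjusted p = 0.0378), which was at 1.90 under B-cell-centred scaling and did not pass without WT A, B or C (0.13, 0.134 and 0.112) or with library totals (0.0701). Epas1 was at 2.45 without replicate 4 and did not pass without WT A (0.0514). Egln3 was at 4.28 without WT B and did not pass without WT A or C (0.0757 and 0.0753). Hif1a was at -0.19 and Myc at -0.55 (edgeR adjusted p = 0.641 and 0.325); Mlxip, Hif1a and Myc were named after their values were seen.

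Hypoxia targets outside glycolysis were higher for 6 of 12 tested genes, against 16.9% of all genes tested, and their median was 1.49. None fell by edgeR, against 1 at an unadjusted p under 0.05 and 1 by DESeq2. Every P1 library lay above every WT library in 5 of the 12 and below in 3, against 22.9% and 24.9% of all genes. Ankrd37, Bnip3 and P4ha1, named after their values were seen, were at -0.79, -0.29 and -0.08 and did not pass (edgeR adjusted p = 0.274, 0.698 and 0.881). Vegfa and Ndrg1, also named after their values were seen, rose by 3.73 and 1.79 (edgeR adjusted p = 0.00961 and 0.0285). Vegfa did not pass without WT B (0.052). Ndrg1 did not pass without WT A, B or C (0.117, 0.108 and 0.0553), without P1 replicate 3 or 4 (0.0573 and 0.0807) or with library totals (0.0675). Pdgfb rose by 2.87 ± 0.39, Adm by 4.71 ± 0.81 and Mxi1 by 3.09 ± 0.56 (edgeR adjusted p = 0.00156, 0.00382 and 0.00454). Adm, which encodes the vessel-widening peptide adrenomedullin, was at 7.65, 16.2 and 64.8 CPM in P1 replicates 3, 4 and 5. Mxi1, a MYC antagonist, was at 79.4, 213 and 45.6 CPM, and the most counted gene, Bnip3l, which clears mitochondria from maturing red cells, at 194, 900 and 50.0 CPM. Bnip3l passed the test (3.06 ± 0.90, edgeR adjusted p = 0.0353) although its replicate 5 lay within the WT range of 39.01 to 58.6 CPM. Bnip3l did not pass without WT A, B or C (edgeR adjusted p = 0.119, 0.0997 and 0.105), without replicate 4 (1.45, 0.0908) or with no filter (0.204). Mxi1 was at 2.27 without replicate 4 and Adm at 3.36 without replicate 5. Mxi1 and Bnip3l followed the order shared by the summed red cell precursor and dividing cell markers, and the part of these cells was not tested.

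The 3 recipients were not alike in which genes were high. Replicate 5 had the highest level of 5 of the 10 genes: Hk2, Pfkp, Pgk1, Pkm and Ldha. It also had the highest summed pan-B cell markers (9046 CPM, against 6348 and 3961 in replicates 3 and 4). Its Sox11 counts were the most, at 5584 against 4066 in replicate 4, but these are not scaled. The totals behind the normalised CPM were 8620912 and 4321502, which puts replicate 4 above replicate 5 for Sox11 on that scale. Hk2, Pgk1 and Ldha followed the order of the pan-B cell sum, replicates 5, 3 and 4. Replicate 3 was highest for Slc2a3, Slc16a1 and Slc16a3, and replicate 4 for Slc2a1 and Hk1, the latter in the order of the red cell precursor and dividing cell sums. With 3 libraries these orders carry no test and depend on the scaling of replicate 4, and the part of the cell types in them was not tested.

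**Figure D4:**
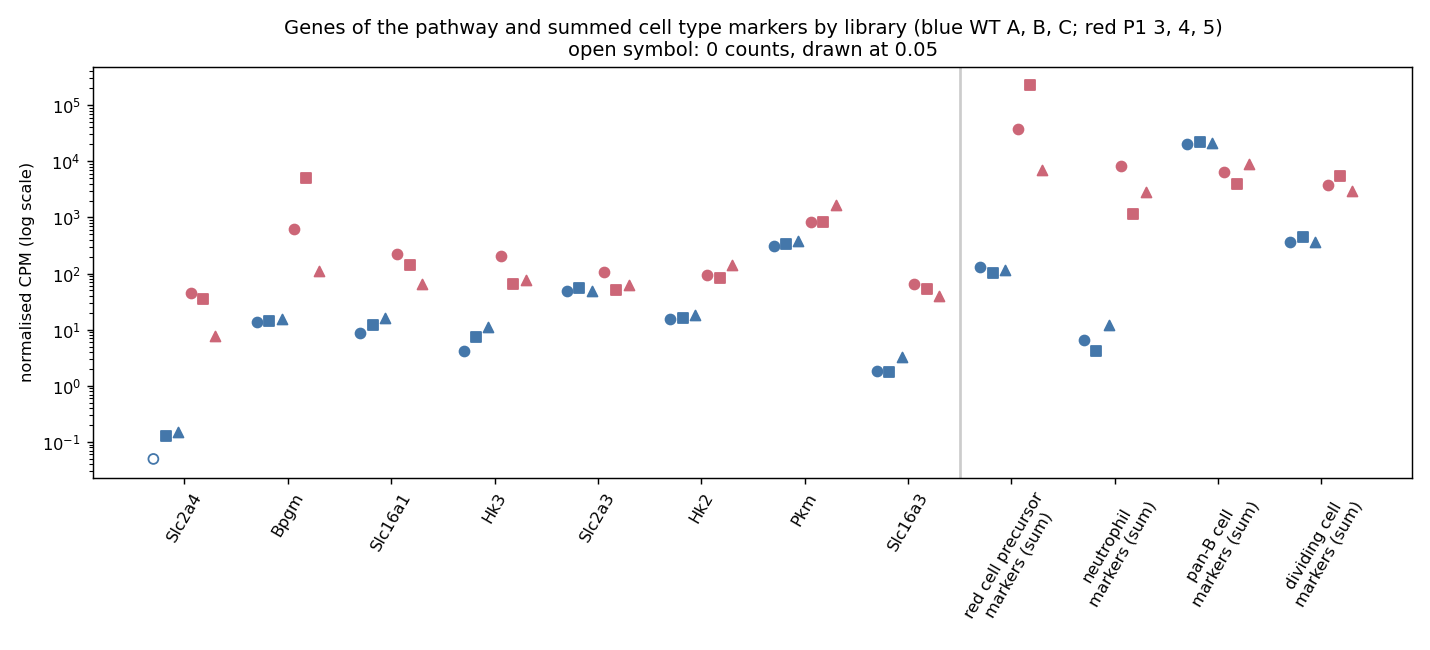
Normalised CPM (vertical axis, log scale) of 8 genes and of 4 summed marker lists in each library, with WT A, B and C in blue and P1 replicates 3, 4 and 5 in red. Bpgm and the red cell precursor and dividing cell sums are highest in replicate 4 (square), and Hk3 and the neutrophil sum in replicate 3 (circle). Hk2 and Pkm, and the pan-B cell sum of the recipients, are highest in replicate 5 (triangle).

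How much of the change was called depended on the scaling. B-cell-centred scaling sets the mean log level of the pan-B cell genes equal in all libraries, while single genes among them can still differ. It put the all-gene median at 2.61 and called all 10 genes higher, among 86.4% of all genes tested. Relative to that median, Slc16a3, Slc16a1 and Hk2 were the highest of the 10, and Slc2a1, at 2.56 on that scale, lay -0.05 from it. Library totals gave a median over all genes of -0.24 and left 4 of the 10 called (12.5% of all genes): Hk2, Pkm, Slc16a1 and Slc16a3. Hk2, Slc16a1 and Slc16a3 were called under all 12 alternatives run, and Pfkp under all but library totals. Without WT A, B or C, 4 of the 10 were called each time, against 10.7%, 10.1% and 12.2% of all genes. Without P1 replicate 3, 4 or 5 the counts were 6, 7 and 6, against 17.9%, 17% and 19.4%. Library totals without mitochondrial and globin genes called 5 (14.7%), no filter on low counts 5 (10.3%) and DESeq2 size factors 7 (17.1%).

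**Figure D5:**
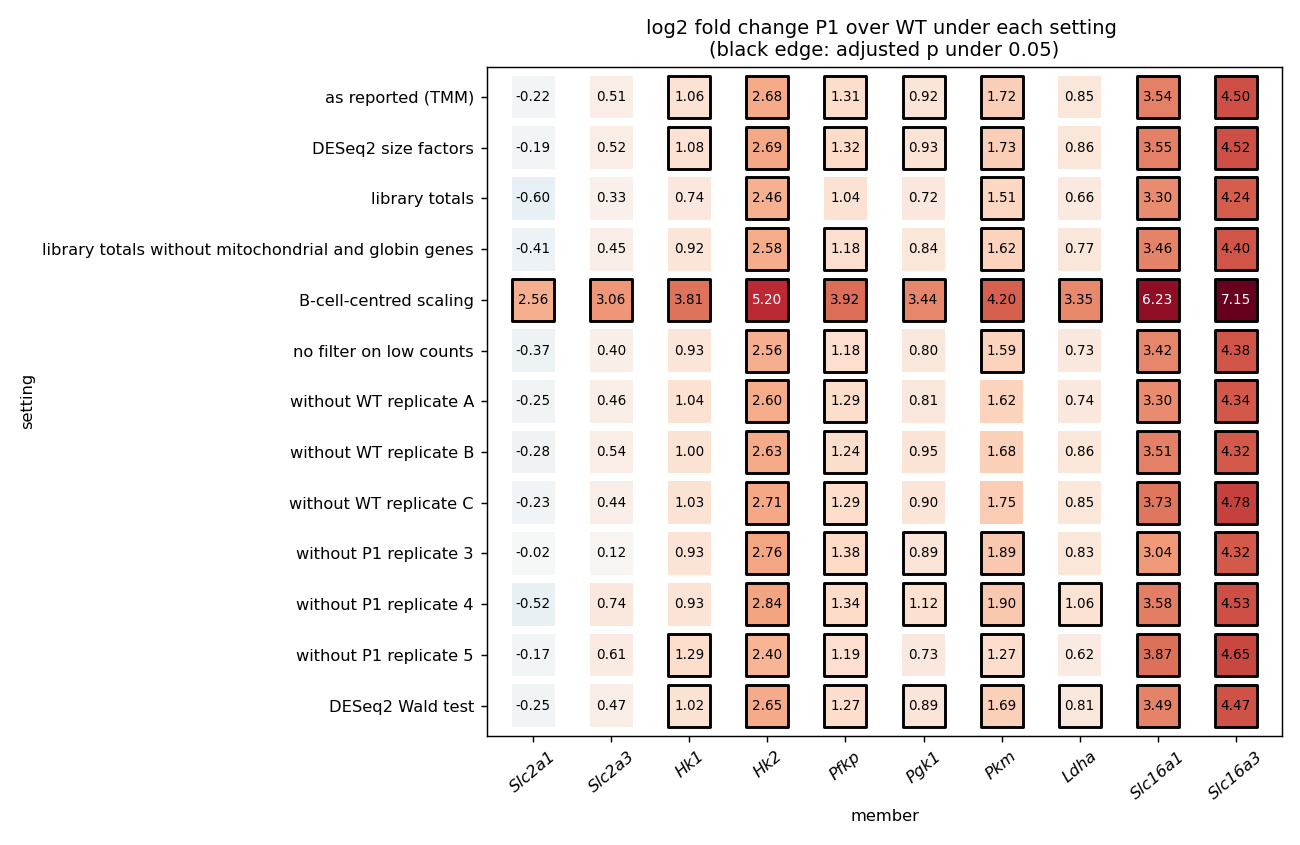
Log2 fold change of P1 over WT for each of the 10 genes (horizontal axis) under each setting (vertical axis), with the value in each square. A black edge marks an adjusted p under 0.05. The columns of Hk2, Slc16a1 and Slc16a3 keep the edge in every row, and B-cell-centred scaling raises every value, Slc2a1 from -0.22 to 2.56.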

How the data were processed

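The authors deposited raw counts per gene for 6 libraries in 1 table. Per the labels, 50 ng of total RNA went into NEBNext Ultra Directional libraries. Per the submitters' processing notes, Trim Galore, HISAT2, featureCounts and GRCm39 were used, with versions, options and counting strand not given in the sources used here. Gene identifiers were paired with symbols for 51948 of 56884 genes (91.3%). After filterByExpr and TMM scaling, the quasi-likelihood test of edgeR (version 4.0.16 in R 4.3.3) was run with robust dispersion and no covariate, and p-values were adjusted by Benjamini-Hochberg over 15462 genes at 0.05. DESeq2 (1.42.0) was an alternative. CPM use TMM-adjusted totals. Isoform ratios were tested by exact permutation of libraries. Simulated counts with known changes served to check the edgeR test. Of 224 entries in 16 gene lists 222 matched, and Ero1a and Ahsp did not. A symbol on more than 1 row (Aldoa) used the row with the most counts. Named were the 10 genes, their families, and from each other list the 3 smallest adjusted p and the most counted gene. The members and lists were chosen with earlier results of these data known.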

Additional observations from a re-analysis of the deposited data

How the results depend on the processing

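The alternatives were other scalings, no filter on low counts, DESeq2 and leaving out each library. B-cell-centred scaling gave 13361 higher and 144 lower genes, against 2618 and 1702 as reported, and turned Slc2a1 to 2.56, when the median of all genes was 2.61. Library totals called 4 of the 10 genes higher, against 7. Leaving out 1 library at a time gave 1644 to 3206 higher and 815 to 2313 lower genes in the whole table and 4 to 7 of the 10 genes higher. Isoform ratios kept their direction without each library and with 0.5 counts added. Division by length cancels from these differences and tests nothing. No paired analysis was possible because the groups share 1 replicate number and the WT columns carry none of the labels' numbers. The depth limits Ldhb, Slc2a4 and Eno2 in WT, which rest on 6 or fewer counts per library.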
